A study of Mus musculus with 12 samples.

Results

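The respiratory chain genes described here encode the subunits of complexes I to V and cytochrome c, whether they lie in the nuclear or in the mitochondrial genome. They were chosen by symbol: names that start with Nduf, Uqcr, Atp5, Cox5, Cox6, Cox7 or Cox8, the mitochondrial mt-Nd, mt-Co and mt-Atp genes, and Sdha, Sdhb, Sdhc, Sdhd, Cyc1, Cycs and mt-Cytb, without Ndufa4, Ndufa4l2, Cox7a1, Cox7a2 and pseudogene symbols. The rule found 90 nuclear genes by symbol. The deposited table gives the 13 mitochondrial genes other names, so these were matched by Ensembl identifier, which brought the members to 103 of the 33352 genes in the table. Of the 103, 52 belong to complex I (45 nuclear and 7 mitochondrial), 4 to complex II, 10 to complex III (1 mitochondrial), 17 to complex IV (3 mitochondrial), 19 to complex V (2 mitochondrial) and 1 is cytochrome c. Those totals include 9 factors that are not subunits, Ndufaf1 to Ndufaf8 and Cox7a2l, which help to build complex I or to join complexes into larger assemblies.

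RNA came from cells sorted by flow cytometry out of the aorta with its perivascular fat, the adipose tissue around the vessel, of adult (13 weeks) male wild-type mice of the CD-1 stock, which is outbred. The labels name no mutation, transgene or treatment in any group. Each of the 4 sorted populations had 3 libraries, 12 in all: Progenitor, Intermediate, and the smooth muscle populations SMC1 and SMC2. The sort gates are not given in the sources used here, and the labels do not say whether a replicate number is an animal or a pool, so p-values reflect only how far the libraries of a group differ, and that spread may partly be technical.

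Complexes I and II pass electrons from NADH and succinate to ubiquinone, complex III passes them to cytochrome c, and complex IV passes them to oxygen. Complexes I, III and IV pump protons, and complex V, the ATP synthase, uses the gradient to make ATP. Complexes I, III, IV and V hold subunits from both genomes and complex II is wholly nuclear. Brown and beige adipocytes are known for a dense respiratory chain, whose gradient they can spend as heat.

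The deposited values are read counts per gene, with 13258631 to 22647175 counts per library. Levels are CPM, counts relative to the total of the library and scaled with TMM factors, and a gene counted as higher or lower (called) where edgeR's quasi-likelihood p, after Benjamini-Hochberg adjustment over the 19016 genes that passed the count filter, was under 0.05. Of the members 100 were tested, 87 of 90 nuclear and 13 of 13 mitochondrial. Cox6a2, Cox7b2 and Cox8c had too few counts. The summed level of 6 smooth muscle markers was 31230 to 37270 CPM in SMC1 and 21600 to 30520 CPM in SMC2 against 237 to 684 CPM in the other 6 libraries, and that of 6 stromal progenitor markers was 10380 to 14870 CPM in Progenitor and Intermediate against 125 to 1188 CPM in SMC1 and SMC2, as the labels of the groups have it. The summed level of 8 adipocyte markers was 2131 to 2503 CPM in SMC2, 156 to 299 CPM in SMC1, 147 to 201 CPM in Progenitor and 51.5 to 75.2 CPM in Intermediate, and that of 8 mesothelial markers was 171 to 409 CPM in Intermediate and at most 69.2 CPM elsewhere. The 6 leukocyte markers reached 534 CPM in an SMC1 library and at most 221 CPM in the other groups, the 4 endothelial markers were 237 to 283 CPM in SMC1 and at most 92.6 CPM elsewhere, and striated muscle and erythroid markers stayed at or below 34.0 and 10.9 CPM. No adipocyte or mesothelial marker was at 0 in all 12 libraries. The 10 dissociation response genes summed to 12690 to 14950 CPM in SMC2, 11150 to 13800 CPM in Intermediate, 9616 to 10760 CPM in SMC1 and 8380 to 9554 CPM in Progenitor. In sorted bulk samples, a larger share of cells of a type and more RNA per cell cannot be told apart.

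Respiratory chain transcripts were most abundant in SMC2 and least abundant in Intermediate, for both genomes. The 90 nuclear members took 1.83%, 1.62% and 1.96% of all counts in the 3 SMC2 libraries, 1.11%, 0.976% and 0.837% in SMC1, 0.931%, 0.896% and 0.708% in Progenitor, and 0.564%, 0.585% and 0.562% in Intermediate. The SMC2 libraries lay above all others and the Intermediate libraries below all others, while SMC1 and Progenitor overlapped. The 13 mitochondrially encoded members took 1.31%, 1.47% and 1.55% in SMC2, 1.10%, 1.04% and 0.785% in SMC1, 0.948%, 0.985% and 0.618% in Progenitor, and 0.456%, 0.439% and 0.431% in Intermediate. That is the same order, with the same overlap of SMC1 and Progenitor, and Progenitor replicate 3 was the lowest Progenitor library for both genomes. Mitochondrial counts per nuclear count were 0.803 ± 0.0953 in SMC2, 0.997 ± 0.0624 in SMC1, 0.997 ± 0.115 in Progenitor and 0.775 ± 0.0297 in Intermediate (SD, n = 3).

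**Figure D1:**
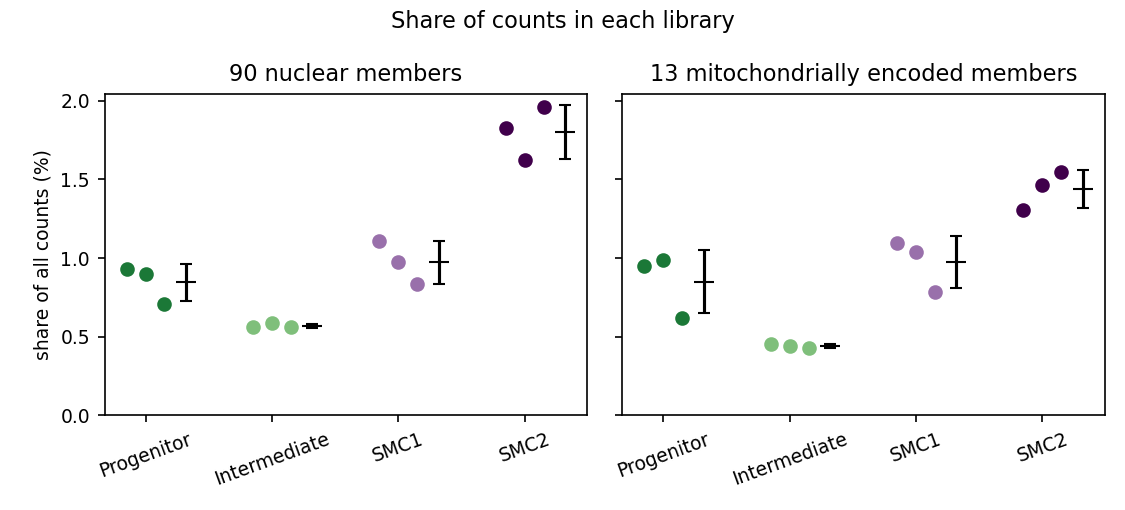
Share of all counts (%) taken by the 90 nuclear and the 13 mitochondrially encoded respiratory chain members in each library. Points are libraries in the order of their replicate numbers and bars give the mean and SD (n = 3); in both panels the 3 SMC2 libraries are highest and the 3 Intermediate libraries lowest.

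By group means, all 13 mitochondrial members and 74 of the 87 tested nuclear members were highest in SMC2, against 27.9% of all genes tested. All 13 mitochondrial members and 75 of the 87 were lowest in Intermediate, against 21.5% of all genes tested. The exceptions were Ndufb11, Ndufa1, Ndufc2, Ndufs4, Ndufb4, Ndufa11b, Ndufaf8, Atp5j2 and Cox7a2l, highest in Progenitor, and Ndufb3, Ndufa6, Ndufv3 and Ndufa11, highest in SMC1. Most of the exceptions are complex I accessory subunits, which surround the catalytic core.

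In SMC2 against SMC1, 44 of the 100 tested members were higher and none lower, where 34.6% of all genes were called, 16.5% higher and 18.1% lower. The member counts came from edgeR's quasi-likelihood test. No member was lower at an unadjusted p below 0.05, and DESeq2 called 52 higher and 0 lower. The median log2 change of the members was 0.45, and that of all genes was -0.00. Among 6171 other genes in the range of mean levels that held 73 of the members, 13.1% were higher and 27.1% lower, with a median of -0.15. All 44 called members were nuclear, 94 of the 100 had a value above 0, and in 51 the SMC2 and SMC1 libraries did not overlap (46.3% of all genes). The count fell to 26 without SMC1 replicate 3 and to 29 without SMC2 replicate 1, in both cases a subset of the 44. Of the 8 adipocyte markers 7 were higher in SMC2 (median log2 change 4.37), with summed levels of 2131 to 2503 CPM against 156 to 299 CPM. Of the 10 dissociation response genes 5 were higher and 2 lower. Their part in the difference was not tested.

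Cytochrome c, the mobile carrier between complexes III and IV, had the largest change among the members above 10 CPM. Cycs was at 393, 331 and 357 CPM in SMC2, 120, 110 and 78.2 CPM in SMC1, 129, 124 and 105 CPM in Progenitor, and 84.1, 68.7 and 69.2 CPM in Intermediate. The SMC2 libraries stood clear of all others. Cycs was 3.52-fold higher in SMC2 than in SMC1 (log2 change 1.82 ± 0.18 (SE), adjusted p = 1.10e-07, edgeR).

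In complex I, 6 of the 7 nuclear core subunits, which carry the flavin and the iron-sulfur clusters, were higher in SMC2 than in SMC1 (median log2 change 0.71), and 12 of the 29 accessory subunits (median 0.27). Whether core and accessory subunits differed was not tested. Ndufs1, the large iron-sulfur subunit, was at 287, 234 and 201 CPM in SMC2 and at 126, 131 and 124 CPM in SMC1, with no overlap. It was higher by 0.92 ± 0.17 on the log2 scale, Ndufv1, which binds NADH, by 0.75 ± 0.17, and Ndufs7 by 0.71 ± 0.18. The core subunit not called was Ndufv2 (0.38). Among accessory subunits the smallest adjusted p belonged to Ndufab1, the mitochondrial acyl carrier protein (0.87 ± 0.14), Ndufa10 (1.03 ± 0.19), Ndufb2 (0.80 ± 0.18) and Ndufb10 (0.56 ± 0.16, not called without SMC1 replicate 3 or SMC2 replicate 1, nor without the count filter). Values below 0, none called, were those of Ndufv3 (-0.29), Ndufb3 (-0.23), Ndufa6 (-0.11) and Ndufa11 (-0.07).

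All 4 subunits of complex II, which is also an enzyme of the Krebs cycle, were higher in SMC2 than in SMC1, with no overlap of libraries. Sdhc, a membrane anchor, was at 239, 165 and 174 CPM in SMC2 and at 101, 79.7 and 93.7 CPM in SMC1 (log2 change 1.07 ± 0.18, adjusted p = 7.01e-05, edgeR). Sdha, the flavoprotein, was at 834, 651 and 523 CPM against 349, 343 and 391 CPM (0.89 ± 0.19). Sdhb, the iron-sulfur subunit, was higher by 0.76 ± 0.16, and Sdhd, the other anchor, by 0.52 ± 0.19 (adjusted p = 0.0409, edgeR). The Sdhd call was lost without SMC1 replicate 2 or 3, without SMC2 replicate 1 or 2, and without the count filter.

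In complex III, 6 of 9 nuclear subunits were higher, with a median log2 change of 0.54. Uqcrfs1, the Rieske iron-sulfur protein, was at 237, 186 and 176 CPM in SMC2 and at 82.6, 69.4 and 66.1 CPM in SMC1, with no overlap (1.46 ± 0.17, adjusted p = 8.45e-07, edgeR). Uqcrc2, a large subunit on the matrix side, was higher by 0.96 ± 0.17 and Cyc1, cytochrome c1, by 0.80 ± 0.17. The values of Uqcrb (0.26), Uqcr10 (0.46) and Uqcrc1 (0.46) did not pass the test.

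In complex IV, 6 of 10 tested nuclear members were higher, with a median of 0.64, and all 10 had values above 0. Cox8a, a small subunit, was at 440, 301 and 382 CPM in SMC2 and at 150, 129 and 114 CPM in SMC1, with no overlap (1.52 ± 0.21, adjusted p = 7.29e-06, edgeR). Cox5a was at 26.7, 18.9 and 22.6 CPM against 12.5, 8.49 and 10.9 CPM (1.10 ± 0.23, adjusted p = 0.000640, edgeR). Cox7c (0.25) and Cox6c (0.30), 2 further small subunits, did not pass the test.

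In complex V, 7 of 17 nuclear members were higher (median 0.45), 3 of the 5 subunits of the catalytic F1 head and 4 of the 12 of the membrane part and stalk. Atp5b, the catalytic beta subunit, was at 2842, 2296 and 2055 CPM in SMC2 and at 1170, 1006 and 1038 CPM in SMC1, with no overlap (1.16 ± 0.19, adjusted p = 4.52e-05, edgeR). Atp5a1, the alpha subunit, was higher by 0.98 ± 0.18. Atp5g3, one of the 3 genes for the same c-ring protein, was higher by 1.11 ± 0.19, while the values of its sister genes Atp5g1 (0.43) and Atp5g2 (0.45) did not pass the test. Atp5pb, the b subunit of the stalk, was higher by 0.73 ± 0.18. Of the 9 assembly or supercomplex factors 2 were higher, Ndufaf2 (1.16 ± 0.18) and Ndufaf4 (0.68 ± 0.19, not called without SMC1 replicate 3). Ndufaf2 shares 65.7% of its exon length with an annotated overlapping gene, and the kit does not mark strand, so its reads may be split or mixed. Ndufaf1 (0.29) and Ndufaf7 (0.43) did not pass the test, though Ndufaf7 did with a replicate block (0.42, adjusted p = 0.0343, edgeR).

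**Figure D2:**
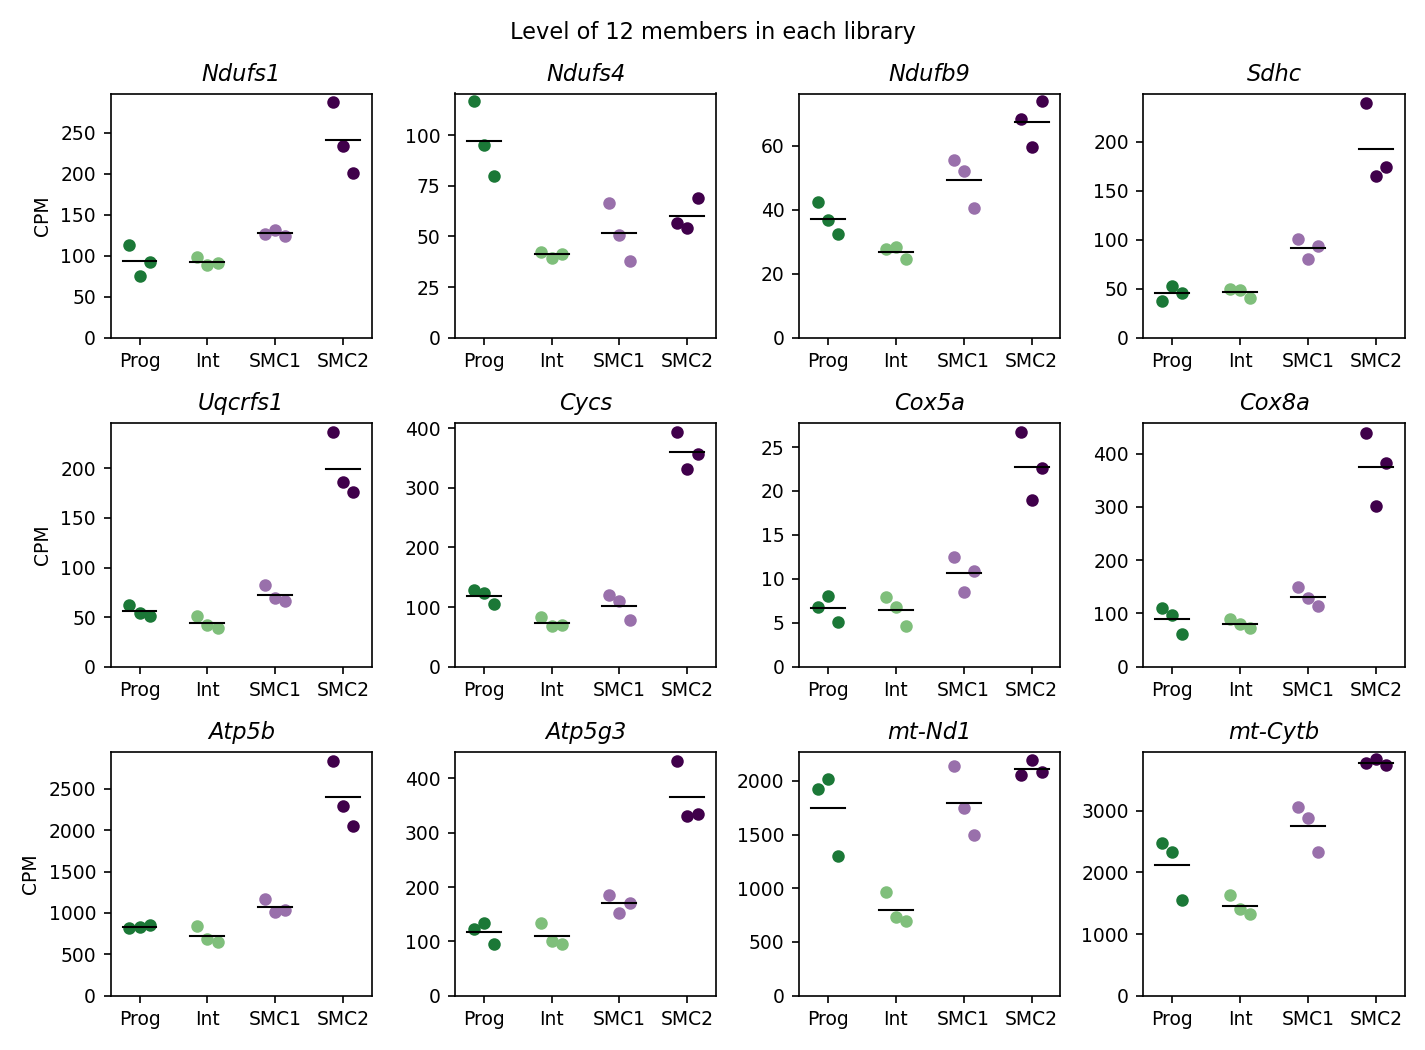
Level (CPM) of 12 members in each library of Progenitor (Prog), Intermediate (Int), SMC1 and SMC2. Points are libraries and lines group means (n = 3); the nuclear genes other than Ndufs4 are highest in SMC2, Ndufs4 is highest in Progenitor, and mt-Nd1 is lowest in Intermediate, with the SMC1 libraries overlapping those of Progenitor and of SMC2.

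In Intermediate against Progenitor, 51 of the 100 tested members were lower and none higher, where 22.2% of all genes were called, 12.7% higher and 9.46% lower. In this edgeR test 1 member was higher at an unadjusted p below 0.05, and DESeq2 called 57 lower and 0 higher. The median log2 change was -0.55 for the members and 0.08 for all genes, and 90 of the 100 members had a value below 0. The libraries did not overlap in 60 members and in 38.7% of all genes. Upper-quartile scaling moved the median of all genes by -0.16, gave 63 lower members and none higher, and changed the higher share of all calls from 57.4% to 39.2%. The count of lower members was 26 without Progenitor replicate 1, 29 without Progenitor replicate 2, 33 without Intermediate replicate 2 and 27 without Intermediate replicate 3, each a subset of the 51. Of the 51, 42 were nuclear and 9 mitochondrial. Of the 8 mesothelial markers 7 were higher in Intermediate and 1 lower (median 2.62), and of the 8 adipocyte markers 4 were lower (median -1.25). Of the 10 dissociation response genes 3 were higher in Intermediate and none lower (median 0.46), with no overlap of libraries in 8. Their part in the difference was not tested.

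The lowest value in Intermediate belonged to complex V, in which 9 of 17 nuclear members were lower, 8 of 12 in the membrane part and stalk and 1 of 5 in F1. Atp5md, a small membrane subunit, was at 37.1, 42.3 and 40.7 CPM in Intermediate and at 112, 118 and 82.9 CPM in Progenitor, with no overlap. It was 2.61-fold lower (log2 change -1.38 ± 0.20, adjusted p = 4.76e-05, edgeR). Atp5j2 (-1.12 ± 0.21), Atp5mpl (-0.98 ± 0.20) and Atp5l (-0.86 ± 0.20), also small membrane subunits, were lower as well. The alpha and beta subunits of F1, Atp5a1 (-0.00 ± 0.18) and Atp5b (-0.20 ± 0.18), did not pass the test.

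In complex I, 17 of 29 accessory subunits were lower and 2 of 7 nuclear core subunits. Ndufs4, an accessory subunit near the NADH-binding module, was at 42.4, 39.6 and 41.5 CPM in Intermediate and at 117, 95.4 and 79.7 CPM in Progenitor, with no overlap (-1.24 ± 0.19, adjusted p = 9.34e-05, edgeR). Ndufc2 (-1.18 ± 0.20), Ndufb4 (-1.19 ± 0.21) and Ndufb11 (-1.01 ± 0.20), which lie in the membrane arm, were lower too. Of the core subunits, Ndufv2, an iron-sulfur protein of the NADH-binding module, was at 99.4, 91.3 and 89.6 CPM against 227, 204 and 172 CPM (-1.11 ± 0.18, adjusted p = 0.000117, edgeR). Its partner Ndufv1 had a value of 0.33 ± 0.17 in the other direction, which did not pass the test (adjusted p = 0.184, edgeR). Ndufs8 had a value of -0.18 that did not pass the test.

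In complex II only Sdhb was called lower (-0.55 ± 0.16, adjusted p = 0.0198, edgeR), and it was not called without Progenitor replicate 1 or 2 or Intermediate replicate 1 or 3. Sdha (-0.00 ± 0.19), Sdhc (0.03 ± 0.18) and Sdhd (-0.25 ± 0.19) did not pass the test. In complex III 5 of 9 were lower, among them Uqcrb (-1.01 ± 0.19), Uqcrh (-1.03 ± 0.20) and Uqcr10 (-0.74 ± 0.21, not called without Progenitor replicate 1 or 2 or Intermediate replicate 1), all small accessory subunits. Cycs was lower by 0.69 ± 0.18 on the log2 scale (adjusted p = 0.00773, edgeR), a call lost without Intermediate replicate 2. In complex IV 4 of 10 were lower: Cox6c (-1.17 ± 0.22), Cox7c (-1.10 ± 0.21), Cox7b (-1.22 ± 0.25) and Cox6b1 (-0.85 ± 0.21). Cox8a (-0.15 ± 0.21) did not pass the test. Among the factors 3 of 9 were lower. Cox7a2l, which links complexes III and IV, fell by 0.60 ± 0.15 and was not called without Progenitor replicate 1. Ndufaf2 (-0.69 ± 0.19) and Ndufaf8 (-0.65 ± 0.20) each lost the call in 3 of 6 fits that left out a library, and Ndufaf5 (-0.54 ± 0.20) did not pass the test with TMM factors but did with the 2 other sets of factors.

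**Figure D3:**
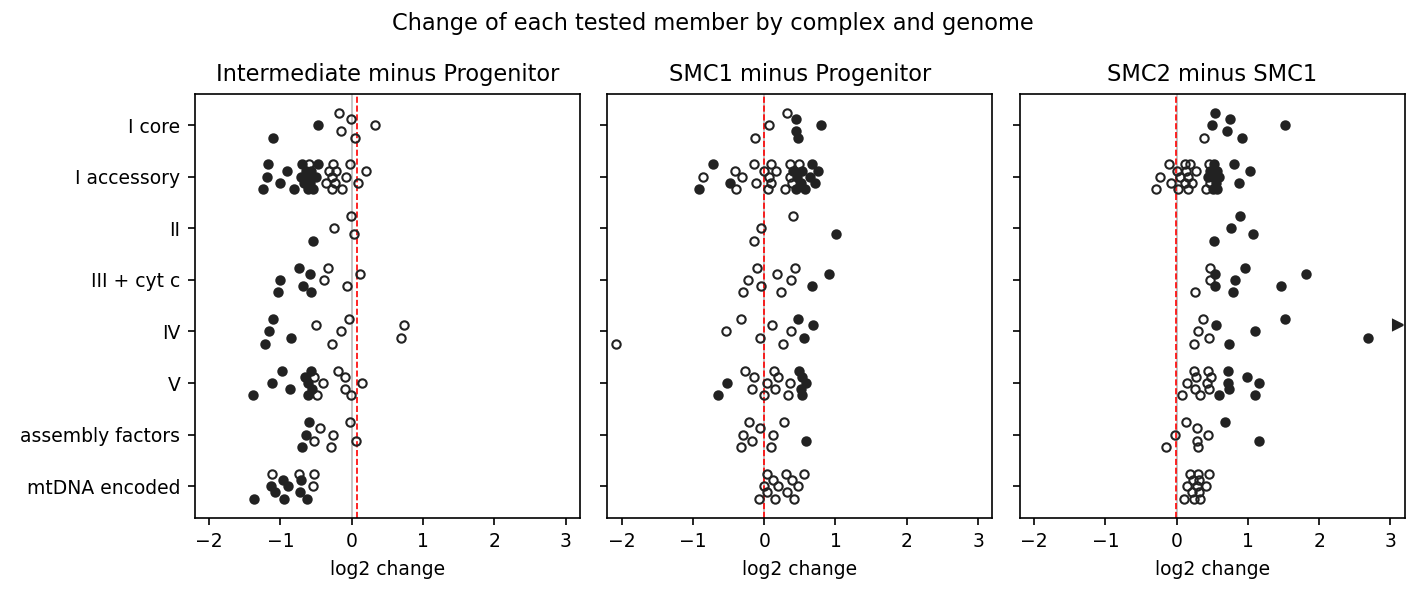
Log2 change of each tested member in 3 comparisons, by complex and genome. Filled points passed the test and open points did not, the red dashed line is the median of all 19016 genes tested, and the triangle marks Cox8b, whose value of 4.99 lies off the axis; filled points lie to the left in Intermediate minus Progenitor and to the right in SMC2 minus SMC1.

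The decline in Intermediate was larger for members with short coding sequences, and the same tilt was present outside the respiratory chain. The median log2 change was -0.71 for the 20 nuclear members with coding lengths up to 300 bases and -0.51 for the 26 members above 300 and up to 450 bases. For other genes of the same range of levels it was -0.40 (103 genes) and -0.29 (263 genes) in those classes. The longer classes held fewer than 20 members each, and above 1500 bases the medians were -0.01 for 4 members and 0.26 for 1985 other genes. Across genes within this comparison, which are not independent replicates, Spearman's rho between coding length and log2 change was 0.494 over 86 nuclear members and 0.373 over 6103 other genes. The members lay below the other genes in each of the 6 length classes. The cytosolic ribosomal protein genes, short abundant genes added here after their values were seen, had a median of -1.10, with 71 of 77 lower. The tilt was also present in the other comparisons with Progenitor. Against Progenitor, 63 of these 77 genes were lower in SMC1 (median -0.75) and 64 in SMC2 (-1.05), while their median in SMC2 minus Intermediate was 0.13. In SMC1 minus Progenitor rho was 0.294 over the nuclear members and 0.27 over the other genes, and in SMC2 minus Progenitor 0.329 and 0.113. These comparisons all share the Progenitor libraries. Without Progenitor, rho over members and other genes was -0.311 and 0.025 in SMC1 minus Intermediate. It was -0.0248 and -0.119 in SMC2 minus Intermediate, and 0.294 and -0.197 in SMC2 minus SMC1. In SMC2 minus SMC1 the medians of the other genes lay between -0.20 and -0.05 in all 6 length classes and those of the members between 0.28 and 0.95.

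**Figure D4:**
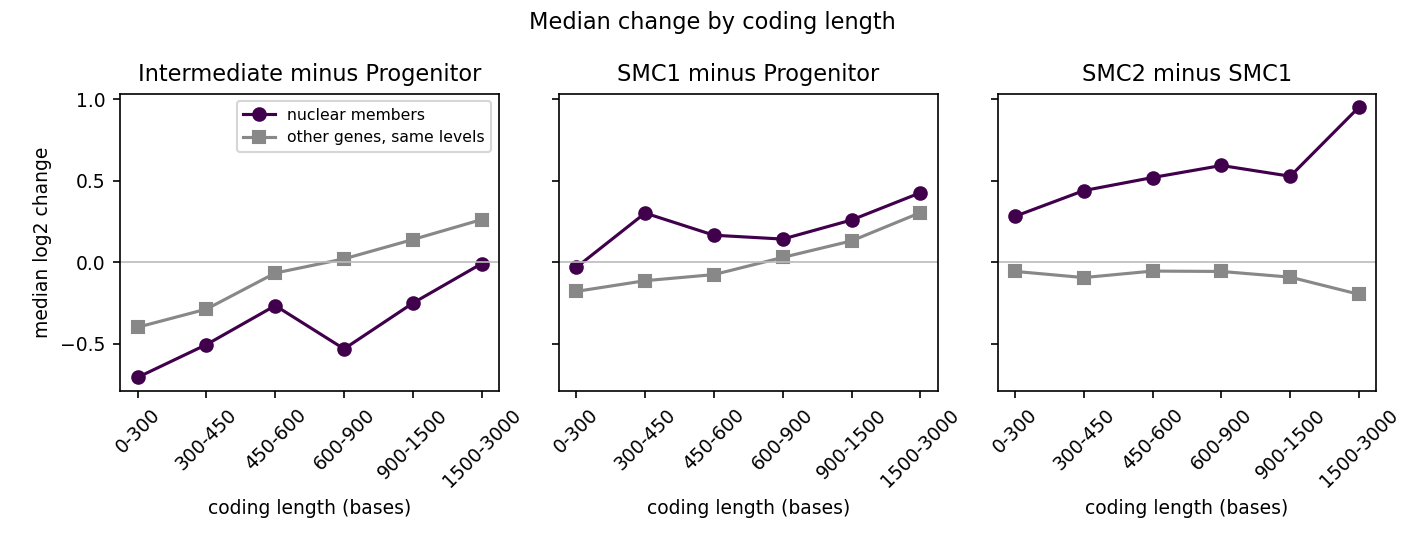
Median log2 change by class of coding length (bases), for nuclear members and for other genes in the same range of mean levels, in 3 comparisons. In Intermediate minus Progenitor the line of the other genes rises with length, that of the members rises with a dip at 600 to 900 bases (9 members), and the members lie below the other genes in each class; in SMC2 minus SMC1 the members lie above the other genes in each class.

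In SMC1 against Progenitor, 26 members were higher and 5 lower, fewer than the 48.3% of all genes called in this comparison (25.3% higher and 23.1% lower). The median log2 change was 0.17 for the members and -0.00 for all genes, and in 69 of 100 members the difference did not pass the test. The libraries did not overlap in 32 members and in 56.4% of all genes. The direction depended on the scaling: with upper-quartile factors, which moved the median of all genes by -0.18 and the higher share of all calls from 52.3% to 41.3%, 9 members were higher and 10 lower and the members' median was -0.02. The total count of calls fell from 31 to 19 without Progenitor replicate 3, to 18 and 19 without SMC1 replicates 1 and 2 and to 15 without SMC1 replicate 3.

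The members called in SMC1 against Progenitor with the smallest adjusted p were spread over the complexes. Sdhc was at 101, 79.7 and 93.7 CPM in SMC1 and at 37.7, 52.4 and 46.1 CPM in Progenitor, with no overlap (log2 change 1.01 ± 0.18, adjusted p = 9.22e-05, edgeR). The other complex II subunits, Sdha (0.41), Sdhb (-0.15) and Sdhd (-0.05), did not pass the test. Uqcrc1, a large complex III subunit, was at 306, 219 and 274 CPM against 122, 127 and 179 CPM (0.90 ± 0.19, adjusted p = 0.000655, edgeR), and Cyc1 was higher by 0.68 ± 0.17. Uqcr11 (0.43 ± 0.18) and Uqcrfs1 (0.38 ± 0.17) did not pass the test, but did with a replicate block (adjusted p = 0.0388 and 0.0262, edgeR). Cycs had a value of -0.22 ± 0.18 that did not pass the test.

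In complex I, 14 nuclear members were higher in SMC1 than in Progenitor and 3 lower. Ndufv1 was higher by 0.79 ± 0.17, and Ndufs3 (0.45 ± 0.16), Ndufs7 (0.47 ± 0.18) and Ndufs1 (0.44 ± 0.17) were higher with calls that were lost in 4 or 5 of the 6 fits that left out a library. Accessory subunits that were higher included Ndufb7 (0.75 ± 0.18), Ndufb10 (0.71 ± 0.16) and Ndufv3 (0.66 ± 0.18, not called without SMC1 replicate 1). The 3 that went the other way were accessory subunits too. Ndufs4 was at 66.4, 50.9 and 37.7 CPM in SMC1 and at 117, 95.4 and 79.7 CPM in Progenitor (-0.91 ± 0.19, adjusted p = 0.000531, edgeR), with no overlap. Ndufb4 (-0.71 ± 0.20) and Ndufc2 (-0.48 ± 0.19, a call lost in 4 of 6 fits that left out a library) were lower, with overlapping libraries. All 3 were also among those lower in Intermediate than in Progenitor, but the comparisons share the Progenitor libraries.

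In complex IV, Cox5a (0.68 ± 0.23), Cox8a (0.55 ± 0.21) and Cox6a1 (0.47 ± 0.18) were higher in SMC1 than in Progenitor, calls lost in 3 to 5 of the 6 fits that left out a library and with upper-quartile factors. In complex V, Atp5g2 (0.59 ± 0.19), Atp5g3 (0.53 ± 0.18) and Atp5d, an F1 subunit (0.52 ± 0.18), were higher, also not with upper-quartile factors, whereas Atp5mpl (-0.65 ± 0.20) and Atp5pb (-0.52 ± 0.18) were lower. Atp5mpl was not called without Progenitor replicate 2 or SMC1 replicate 3, nor Atp5pb without Progenitor replicate 1 or SMC1 replicate 3. Of the factors Ndufaf3 alone was called (0.59 ± 0.16, not without SMC1 replicate 1), and Ndufaf2 (-0.33), Ndufaf5 (0.28) and Cox7a2l (-0.29) were not.

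The remaining pairs gave higher counts. In SMC2 against Intermediate 93 of 100 members were higher and none lower in edgeR's test, in which none was lower at an unadjusted p below 0.05 and DESeq2 called 94 higher and 0 lower; 44.6% of all genes were called, 21.4% higher and 23.2% lower. The median was 1.21 on the log2 scale, all 100 values were above 0, and 98 members had no overlap of libraries (54.2% of all genes). Among the members with the smallest adjusted p were Uqcrfs1 (2.17 ± 0.17), Cycs (2.29 ± 0.18), Sdhc (2.05 ± 0.18), Cox8a (2.22 ± 0.21) and Uqcrc2 (1.58 ± 0.17). In SMC2 against Progenitor 57 were higher and 2 lower (44.8% of all genes called, 23.1% higher and 21.7% lower), with a median of 0.62 and no overlap of libraries in 63 members (52.8% of all genes). Those with the smallest adjusted p included Sdhc (2.09 ± 0.18), Uqcrfs1 (1.83 ± 0.17), Cox8a (2.07 ± 0.21), Cycs (1.60 ± 0.18) and Ndufv1 (1.54 ± 0.17), and the 2 lower members were Ndufs4 (-0.70) and Ndufb4 (-0.69). In SMC1 against Intermediate 76 were higher and 2 lower (41.6% of all genes called, 19.7% higher and 21.9% lower), with a median of 0.69 and no overlap in 86 members (52.9% of all genes). Without SMC1 replicate 1, 50 were called. Ndufb3 (1.34 ± 0.18), Cox7c (1.48 ± 0.21), Atp5md (1.21 ± 0.20), Ndufa12 (1.03 ± 0.17), Cox6c (1.28 ± 0.22) and Ndufb7 (1.04 ± 0.18) led, mostly short accessory subunits, and Cox6b2 (-1.27) and Cox8b were the lower members. Cox8b had 2, 0 and 0 counts in SMC1 and 3, 5 and 5 in Intermediate, and its call (adjusted p = 0.0429, edgeR) was lost with the replicate block (adjusted p = 0.0501), with DESeq2 and without SMC1 replicate 2 or 3 or Intermediate replicate 2 or 3, and in a fit of these 6 libraries alone it had too few counts to be tested.

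The members that separated SMC2 from SMC1 and those that separated Progenitor from Intermediate overlapped in part. A total of 13 of 100 members were both higher in SMC2 than in SMC1 and lower in Intermediate than in Progenitor, against 2.43% of all genes. They made up 29.5% of the 44 members higher in SMC2, where 51 of all 100 members were lower in Intermediate, and 25.5% of those 51, where 44 of all 100 were higher in SMC2. So members called in one comparison were called in the other less often than the members as a whole, and whether the 2 lists are related was not tested. Among all genes tested, 14.7% of those higher in SMC2 were lower in Intermediate, where 9.46% of all were. These comparisons share no library. A test of the difference between the 2 differences, SMC2 minus SMC1 and Progenitor minus Intermediate, called 35 members. Of these, 20 had a larger SMC2 excess and 15 a larger Progenitor excess. Among all genes 22.5% were called, 12.2% and 10.3% in these directions. Among the 6171 other genes of the same range of levels 28.1% were called, 13.7% and 14.4% in these directions. Of the 73 members in that range, 13 and 13 were called, with a median of -0.20. The total over all members was 21 without Intermediate replicate 2, 20 without SMC1 replicate 1 and 22 without SMC2 replicate 2. Uqcrfs1 (1.13 ± 0.24), Cox8a (1.37 ± 0.29), Ndufa10 (1.23 ± 0.26), Cycs (1.13 ± 0.25) and Cox6b2 (3.41 ± 0.48) were among the leading members on the SMC2 side.

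The mitochondrially encoded members are core subunits of complex I (mt-Nd1 to mt-Nd6 and mt-Nd4l), cytochrome b of complex III, 3 core subunits of complex IV and 2 membrane subunits of complex V. Of these, 7 have an annotated near-identical copy on chromosome 1 of the nuclear genome, between bases 24611535 and 24616197 of GRCm38, found by aligning the GENCODE transcripts. Reads that fit both places cannot be told apart. The copy held 52.1% of the pair's counts for mt-Co2, 54.3% for mt-Atp6, 60.7% for mt-Co3, 75.8% for mt-Nd3 and 88.8% for mt-Nd4l (medians over libraries), but 1.75% for mt-Co1 and 3.73% for mt-Nd4, whose transcripts the copy covers only in part. Some nuclear members also share near-identical stretches (at least 98% identity over 100 bases) with other annotated genes. These cover 33.7% of the longest transcript for Cycs (7 genes), 40.2% for Ndufb4, 39.8% for Uqcrb, 32.9% for Cox7c and 75.7% for Ndufs3. Their part in the counts was not tested. The start of mt-Nd3 and of its copy Gm28438 is printed because a single base separates them over the stretch shown, a T3C substitution counted from 1 at the 5′ end of mt-Nd3, in capitals. The first is at chrM:9459-9499 on the plus strand and the second at chr1:24613079-24613119 on the minus strand (GRCm38).
mt-Nd3: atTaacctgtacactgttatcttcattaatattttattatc
Gm28438: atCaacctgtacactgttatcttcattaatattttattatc

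In Intermediate against Progenitor 9 of 13 mitochondrial members were lower, with a median of -0.90, and all 13 had values below 0. The 6 members without an annotated copy are mt-Nd1, mt-Nd2, mt-Nd5, mt-Nd6, mt-Cytb and mt-Atp8, and 3 of them were lower (median -0.67). Only annotated transcripts were searched. mt-Atp8 lies between mt-Co2 and mt-Atp6, whose copies neighbour each other on chromosome 1, so it may have a copy that is not annotated. mt-Nd1 was at 967, 732 and 695 CPM in Intermediate and at 1922, 2018 and 1305 CPM in Progenitor, with no overlap (-1.13 ± 0.21, adjusted p = 0.000561, edgeR). mt-Nd5 (-0.63 ± 0.19) and mt-Nd2 (-0.71 ± 0.24) were lower, calls lost in 4 and 3 of the 6 fits that left out a library. mt-Cytb was at 1635, 1399 and 1321 CPM against 2475, 2323 and 1546 CPM, with overlap. Its change of -0.54 ± 0.20 did not pass the test (adjusted p = 0.0623, edgeR), but did with a replicate block (-0.53, adjusted p = 0.0446, edgeR), with median-of-ratios or upper-quartile factors, in a fit of these 6 libraries alone and with DESeq2 (adjusted p = 0.00655). mt-Nd6 (-0.54 ± 0.21) did not pass, but did with either other set of factors, without the count filter, in the fit of 6 libraries and with DESeq2 (adjusted p = 0.0250 to 0.0470). DESeq2 thus called 11 of the 13 lower, and 5 of the 6 without an annotated copy. mt-Atp8 (-0.75 ± 0.40) did not pass. Of the members with a copy, mt-Co1 (-0.96 ± 0.20), mt-Co3 (-1.07 ± 0.19), mt-Atp6 (-0.96 ± 0.18), mt-Nd3 (-1.37 ± 0.30), mt-Nd4 (-0.90 ± 0.24, lost without Progenitor replicate 2 or Intermediate replicate 3) and mt-Co2 (-0.73 ± 0.20, lost in 3 of 6 such fits) were lower. mt-Nd4l (-1.12 ± 0.65) was not called.

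In SMC2 against SMC1 no mitochondrial member passed edgeR's test, although all 13 values lay above 0, with a median of 0.28. At an unadjusted p below 0.05 there was 1, and DESeq2 called mt-Co1 and mt-Cytb, as did upper-quartile factors and a fit of these 6 libraries alone. mt-Cytb was at 3767, 3835 and 3736 CPM in SMC2 and at 3059, 2878 and 2338 CPM in SMC1, with no overlap (0.45 ± 0.20, adjusted p = 0.0911, edgeR). mt-Co1 was at 4320, 4266 and 3912 CPM against 3570, 3256 and 2553 CPM, also with no overlap (0.41 ± 0.20, adjusted p = 0.116, edgeR). The other values were 0.24 for mt-Nd1, 0.25 for mt-Nd2, 0.22 for mt-Nd3, 0.32 for mt-Nd4, 0.10 for mt-Nd4l, 0.19 for mt-Nd5, 0.15 for mt-Nd6, 0.28 for mt-Co2, 0.32 for mt-Co3, 0.30 for mt-Atp6 and 0.31 for mt-Atp8. The nuclear members' median in the same comparison was 0.46, with 44 of 87 called. Whether the genomes differed in their change was not tested.

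In SMC1 against Progenitor no mitochondrial member passed edgeR's test, 1 was higher at an unadjusted p below 0.05, and DESeq2 called 0. The median was 0.20, and the values ran from -0.07 for mt-Co3 to 0.56 for mt-Nd4l, with overlapping libraries for all 13. With a replicate block mt-Nd6 was higher (0.50, adjusted p = 0.0422, edgeR). The other values were 0.04 for mt-Nd1, 0.42 for mt-Nd2, 0.12 for mt-Nd3, 0.30 for mt-Nd4, 0.32 for mt-Nd5, 0.48 for mt-Nd6 without the block, 0.38 for mt-Cytb, -0.01 for mt-Co1, 0.20 for mt-Co2, 0.04 for mt-Atp6 and 0.15 for mt-Atp8, and those of mt-Nd1, mt-Atp6, mt-Nd3 and mt-Atp8 changed sign with upper-quartile factors. Against Intermediate, all 13 were higher in SMC2 (median 1.37) and 12 in SMC1 (median 1.004), and against Progenitor 5 were higher in SMC2 (median 0.48).

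Compared per length of exon (counts per kilobase, rescaled to the same total in every library, as in TPM), the mitochondrial members spanned a wide range. Means over the 12 libraries were 7525 for mt-Cytb, 6602 for mt-Co1 and 5693 for mt-Nd1, against 37.7 for mt-Atp8 and 10.1 for mt-Nd4l. Members whose copy covers nearly the whole transcript were all low: mt-Co3 (452), mt-Atp6 (277), mt-Co2 (167), mt-Nd3 (51.0) and mt-Nd4l. mt-Nd6, without an annotated copy, had 388. It is the only mitochondrial member on the minus strand, and the kit does not mark strand. Its reads may therefore include RNA of the other strand. Reads shared with a copy may be missing from the mitochondrial values, so the range may not be one of RNA level. The part of the copies was not tested. Among nuclear members the highest per-length means were 1341 for Ndufa1, 1054 for Cox6a1, 1020 for Atp5b and 949 for Cox8a, so the most abundant nuclear subunits lay below mt-Nd4 (1546). Within complex II the means were 360 for Sdhd, 326 for Sdha, 269 for Sdhb and 100.1 for Sdhc. Sdhc, the lowest of the 4, had a per-length mean of 217 in SMC2 and 94.5 in SMC1, against 45.6 in Intermediate and 43.6 in Progenitor. Within the 3 c-ring genes Atp5g3 had 301, Atp5g2 54.8 and Atp5g1 49.2. Lengths are those of all annotated exons of a gene together, 2181, 1675 and 4912 bases for these 3. They can exceed the RNA that a cell makes, so the order of members may partly reflect annotation.

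Tissue isoforms, which replace a common subunit in some tissues, and the gene copy Ndufa11b, without an annotated coding sequence, were low. Cox6b2, the alternative to Cox6b1, was at 9.07, 5.98 and 7.38 CPM in SMC2, 1.63, 1.03 and 0.820 CPM in SMC1, 1.504, 2.334 and 1.263 CPM in Progenitor and 2.86, 2.20 and 3.39 CPM in Intermediate. Its SMC2 libraries stood above all others (SMC2 minus SMC1 2.68 ± 0.34, adjusted p = 2.67e-06, edgeR), while Cox6b1, at 226 ± 43.0 and 165 ± 44.9 CPM (SD, n = 3), had a change of 0.45 that did not pass the test. Cox8b, the alternative to Cox8a, was at 0.552, 0.988 and 2.40 CPM in SMC2 and at 0.102, 0 and 0 CPM in SMC1 (called higher in SMC2, adjusted p = 0.000267, edgeR), so that its fitted log2 value of 4.99 rests on few counts and is no measure of size. In Intermediate minus Progenitor Cox6b2 (0.73) and Cox8b (0.68) did not pass the test, nor did they in SMC1 minus Progenitor (-0.54 for Cox6b2). Cox6b1 had a value of -0.05 in that comparison. Ndufa11b, a copy of Ndufa11, was at most 0.821 CPM in any library and passed no main test (-0.60, -0.86 and 0.45 in Intermediate minus Progenitor, SMC1 minus Progenitor and SMC2 minus SMC1), while Ndufa11 was higher in SMC1 than in Progenitor (0.51 ± 0.17, not called without Progenitor replicate 3 or SMC1 replicate 1) and had a value of -0.08 in Intermediate. Cox6a2, Cox7b2 and Cox8c reached at most 0.228, 0.180 and 0.249 CPM.

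The genes around the respiratory chain were read from lists chosen by function. Beside their counts stand 16.5% of all genes higher and 18.1% lower in SMC2 than in SMC1, 12.7% higher and 9.46% lower in Intermediate than in Progenitor, and 25.3% higher and 23.1% lower in SMC1 than in Progenitor. The complex IV subunit genes outside the symbol rule were Cox4i1 and its isoform Cox4i2, and Cox4i2 was at 35.57, 26.87 and 32.04 CPM in SMC2 and at 3.21, 2.98 and 1.82 CPM in SMC1 (3.55 ± 0.25, adjusted p = 9.07e-10, edgeR), whereas Cox4i1 (0.17) did not pass the test. Of 34 tested assembly genes of all complexes, 6 were higher in SMC2 than in SMC1 (17.6%, near the share of all genes) and 1 lower, with a median of 0.21, led by Foxred1 (1.256), Sdhaf3 (1.11), Cox10 (0.91) and Atpaf1 (0.72). In Intermediate against Progenitor 8 of the 34 were lower (23.5%) and 1 higher, led by Coa6 (-1.12), Pet100 (-1.46), Sdhaf4 (-1.09) and Uqcc2 (-1.01). Of 21 tested genes that transcribe, process and copy the mitochondrial genome, 1 was called between SMC2 and SMC1 (Polg2, 0.68 higher in SMC2), and the median was 0.01. Tfam, which packages and starts transcription of mitochondrial DNA, had a value of 0.31 that did not pass the test. In Intermediate 5 of the 21 were lower (23.8%) and 1 higher than in Progenitor.

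Of 10 tested nuclear regulators of respiratory genes, 4 were higher in SMC2 than in SMC1. Ppargc1b, a coactivator of mitochondrial genes, was at 39.3, 22.1 and 26.8 CPM in SMC2 and at 2.65, 2.05 and 2.05 CPM in SMC1 (3.71 ± 0.29, adjusted p = 4.84e-09, edgeR), and Ppargc1a, its relative, at 40.4, 30.5 and 23.3 CPM against 7.99, 8.21 and 7.09 CPM (2.02 ± 0.23). Ppara (0.63) and Esrra (0.70), nuclear receptors, were higher by smaller steps. In Intermediate against Progenitor 3 of the 10 were called, all higher, the opposite direction to the called respiratory chain members: Ppargc1a (2.38 ± 0.27), Esrrg (2.49 ± 0.46) and Pprc1 (0.61 ± 0.19). Ppargc1a was at 8.39, 5.90 and 6.13 CPM in Intermediate and at 1.32, 0.867 and 1.71 CPM in Progenitor. Of 17 import, chaperone and membrane genes of mitochondria, 7 were higher in SMC2 than in SMC1 (41.2%, median 0.39), led by Slc25a5 (1.58), Hspa9 (0.91), Cs (0.96) and Vdac1 (0.70), and 3 were lower in Intermediate than in Progenitor (17.6%, median -0.12). Of 14 glycolysis genes 6 were higher (42.9%) and 4 lower (28.6%) in SMC2 than in SMC1, with Ldha (1.19) and Pfkl (0.96) on the one side and Hk2 (-1.66) and Pfkp (-0.94) on the other. In SMC1 against Progenitor 11 of the 14 were higher (78.6%) and 1 lower (median 0.75).

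Promoters were available for 74 members, from RefSeq on GRCm38.p6, as windows of 250 bases before to 50 after the gene's start, searched on both strands for 4 short motifs. The NRF1 motif GCGCATGCG was in 11 of the 74 windows (14.9%, against 1.95% of all 27025 genes and 3.52% of tested genes). The ETS core CCGGAAG was in 19 (25.7% against 9.93% and 17.1%), the estrogen-related receptor motif TCAAGGTCA in 2, Atp5g3 and Sdhd (2.70% against 0.466% and 0.325%), and CCAAT in 34 (45.9% against 41.1% and 42.1%). Cycs, Atp5g3 and Sdhd are printed because they hold the first 3 motifs and were higher in SMC2 than in SMC1. The 250 bases before the start are shown, all on the minus strand, with matches in capitals: for Cycs (chr6:50566570-50566819) the NRF1 motif as CGCATGCGC, beginning 61 bases before the start, and CCAAT; for Atp5g3 (chr2:73911327-73911576) CCAAT and the receptor motif as TGACCTTGA, 52 bases before the start; for Sdhd (chr9:50603850-50604099) the ETS core as CTTCCGG, 46 bases before the start. A match in the letters is not evidence of a bound factor.
Cycs: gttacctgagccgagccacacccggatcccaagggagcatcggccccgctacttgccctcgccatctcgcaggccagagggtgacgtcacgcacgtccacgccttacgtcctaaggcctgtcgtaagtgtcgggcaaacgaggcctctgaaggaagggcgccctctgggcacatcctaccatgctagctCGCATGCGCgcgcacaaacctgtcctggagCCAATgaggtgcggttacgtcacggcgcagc
Atp5g3: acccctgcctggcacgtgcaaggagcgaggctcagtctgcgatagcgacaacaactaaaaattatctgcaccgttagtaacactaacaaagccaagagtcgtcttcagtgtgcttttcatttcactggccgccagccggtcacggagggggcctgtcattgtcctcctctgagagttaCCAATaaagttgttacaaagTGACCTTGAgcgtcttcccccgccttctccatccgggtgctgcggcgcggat
Sdhd: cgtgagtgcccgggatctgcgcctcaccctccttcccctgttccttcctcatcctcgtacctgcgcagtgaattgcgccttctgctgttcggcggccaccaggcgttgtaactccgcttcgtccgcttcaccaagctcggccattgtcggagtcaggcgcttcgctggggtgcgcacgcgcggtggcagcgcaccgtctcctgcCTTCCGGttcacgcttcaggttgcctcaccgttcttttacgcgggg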

How the data were processed

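Poly(A) RNA from 12 sorted samples, 3 in each of 4 groups, was read from a table of raw read counts per gene as the authors deposited it. Per the submitters' processing notes, the tools included STAR (2.5.2a) and DESeq2 (1.26.0), on build mm10. The counting program and annotation are not given in the sources used here. Of 33352 rows, 33323 matched GENCODE release 21 identifiers (GRCm38), which gave names, coordinates and exon lengths, and no column was left unused (0). Tests used edgeR 4.0.16 in R 4.3.3 with limma 3.58.1: filterByExpr kept 19016 genes, TMM factors scaled the libraries, and 1 quasi-likelihood fit of 4 group means over 12 libraries had 8 residual degrees of freedom and a common biological coefficient of variation of 0.206. The code was tested on simulated data.

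The respiratory chain members and all gene lists were chosen with earlier results of these data known. Named were, in each of 3 main comparisons, up to 4 members per class with the smallest adjusted p, all mitochondrial and complex II members, Cycs, tissue isoforms and gene copies with their common form, and called members that went against their complex. In other comparisons up to 6 were named. Alternatives were other scaling factors, DESeq2 1.42.0, no count filter, a replicate block, only the 2 groups compared, and leaving out each library. Same-numbered Progenitor and Intermediate libraries deviated together (r = 0.171, 0.191 and 0.170), so their numbers may pair them. In the other pairs of groups at least 1 r was at or below 0.1. Same-numbered SMC1 and SMC2 libraries had r = 0.145, 0.0469 and 0.159. Each was above the highest r of that SMC1 library with another number (-0.0274, -0.00607 and -0.0178). The reported fit had no term for replicate number, and only the replicate block did. 1 member is counted in the totals but its own values are not reported here.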

Additional observations from a re-analysis of the deposited data

Results flagged for a closer look

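The difference between SMC2 and SMC1 was set against the difference between Progenitor and Intermediate in 1 test of the difference itself, edgeR's quasi-likelihood test, Benjamini-Hochberg adjusted over all 19016 genes. It called 35 of the 100 tested members, where 22.5% of all genes and 28.1% of other genes of the same range of levels were called. Of the 35, 34 are given here with the first log2 difference less the second in brackets. In 20 of the 35 the value was above 0, so that SMC2 stood further above SMC1 than Progenitor above Intermediate. In complex I these included Ndufa10 (1.23), Ndufv1 (1.08), Ndufs1 (0.91), Ndufab1 (0.73), Ndufb2 (0.78) and Ndufb10 (0.65). In complex II they were Sdhc (1.11) and Sdha (0.89). In complex III and cytochrome c they were Uqcrfs1 (1.13), Cycs (1.13) and Cyc1 (0.73). In complex IV they were Cox6b2 (3.41), Cox8a (1.37), Cox8b (5.67) and Cox5a (1.06). In complex V they were Atp5g3 (1.01), Atp5a1 (0.98), Atp5b (0.97) and Atp5d (0.87). In the other 15 the value was below 0, and Progenitor stood further above Intermediate. Among these were the complex I members Ndufb4 (-1.16), Ndufs4 (-1.03), Ndufb3 (-0.93), Ndufb11 (-1.01), mt-Nd1 (-0.90), Ndufv2 (-0.72), Ndufa6 (-0.72), Ndufc2 (-0.77) and Ndufaf8 (-0.79). Also below 0 were the complex IV members mt-Co3 (-0.76), Cox7a2l (-0.63), Cox7c (-0.85) and Cox6c (-0.87). Then came the complex V members Atp5md (-1.13) and Atp5j2 (-1.05). With the replicate block, which pairs same-numbered libraries, Cox6c, Ndufa6, Ndufaf8, Ndufc2 and mt-Co3 were no longer called (adjusted p = 0.0511 to 0.0645, edgeR). Of the 34, 19 lost the call in at least 1 of 17 alternatives. Cox8b and Cox6b2 have low counts, so their values rest on few reads. The adipocyte marker sum was higher in all 3 SMC2 libraries than in any other library. The values also rose with coding length, with Spearman's rho of 0.462 over 86 nuclear members and 0.102 over 6103 other genes. The medians of members and other genes were -0.39 and -0.41 up to 300 bases, and 0.94 (4 members) and 0.02 above 1500 bases. Of the 77 cytosolic ribosomal protein genes 64 were called below 0 (median -1.39). The part of the adipocyte markers and of coding length in these differences was not tested.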

How the results depend on the processing

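In Intermediate minus Progenitor no alternative called a member higher, and in SMC2 minus SMC1 none called a member lower, but the counts changed in size, and elsewhere the balance of directions did too. In Intermediate minus Progenitor 26 to 55 members were lower when 1 library was left out. In SMC1 minus Progenitor the total was 15 to 30 when 1 library was left out (6 to 27 higher, 2 to 12 lower), 19 with upper-quartile factors (9 higher, 10 lower) and 20 without the count filter (17 higher, 3 lower). In SMC2 minus SMC1 it was 26 to 51 and, without the filter, 28. In SMC1 minus Intermediate it was 50 to 79 (48 to 78 higher, 1 to 2 lower). The test of the difference between differences gave 20 to 36 (10 to 19 above 0, 6 to 21 below 0) and, without the filter, 30 of which 11 were above 0, against 20 of 35. With the replicate block the totals were 53, 35 and 48 in the 3 main comparisons. The block gave calls to mt-Cytb, Uqcr11, Uqcrfs1, mt-Nd6 and Ndufaf7 in these comparisons. It took away that of Cox8b in SMC1 minus Intermediate and, in the difference between differences, those of Cox6c, Ndufa6, Ndufaf8, Ndufc2 and mt-Co3, and changed no other call named in the text. Of 1662 values of named members under alternatives 47 reversed in sign, none of a called result. Leaving out 1 library gave, in Intermediate minus Progenitor, -0.350 to 0.0430 for Cox8a, -0.211 to 0.0152 for Ndufa11, -0.104 to 0.0768 for Sdha, -0.0683 to 0.164 for Sdhc and -0.373 to 0.0367 for Sdhd. In SMC1 minus Progenitor it gave -0.359 to 0.149 for Cox6b1, -0.0157 to 0.389 for Ndufaf5, -0.228 to 0.238 for Sdhd, -0.222 to 0.202 for mt-Atp6, -0.197 to 0.665 for mt-Atp8, -0.190 to 0.146 for mt-Co1, -0.308 to 0.0337 for mt-Co3, -0.184 to 0.165 for mt-Nd1 and -0.172 to 0.483 for mt-Nd3. In SMC2 minus SMC1 it gave -0.176 to 0.0853 for Ndufa11, -0.109 to 0.827 for Ndufa11b and -0.166 to 0.424 for mt-Nd4l. Sdhc in Intermediate minus Progenitor was -0.0232 with median-of-ratios factors, -0.0231 with DESeq2, -0.129 with upper-quartile factors, -0.00975 without the filter and -0.0647 with only the 2 groups. In SMC1 minus Progenitor mt-Atp6 was -0.00632, -0.00636 and -0.150 and mt-Nd1 -0.0102, -0.0102 and -0.155 with the first 3 of these, and with upper-quartile factors mt-Atp8 was -0.0505 and mt-Nd3 -0.0742. In SMC2 minus SMC1 Ndufa11 was 0.0449 with upper-quartile factors and 0.00893 with only the 2 groups. The cause was not tested. Intervals cover 3 libraries a group, and members below 1 CPM could not be compared with precision.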
